A study of Mus musculus with 6 samples.

Results

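The enzymes and transporters that carry glucose through glycolysis, to lactate, into the pyruvate dehydrogenase complex or through the pentose phosphate pathway were followed over the 3 stages of the Eμ-Myc lymphoma model. The set held 35 genes, chosen by symbol as members of these pathways, of 37991 genes counted. All 35 were found and passed the filter on low counts, which left 16683 genes to be tested. Pre-B cells were sorted from bone marrow. The labels give 1 gate (B220 high, IgM low, IgD low) for all stages, while the methods name it for wild-type and premalignant cells and describe the malignant cells as B220+IgM-IgD-. The donors were C57BL/6 wild-type mice aged 4 to 6 weeks, premalignant mice of that age heterozygous for the Eμ-Myc transgene, and Eμ-Myc heterozygotes with lymphoma aged 10 to 20 weeks. In the transgene the immunoglobulin heavy chain enhancer drives Myc in the B lineage. Each stage was measured in 2 libraries of polyadenylated RNA, described in the labels and methods as separate biological replicates, and the values of a pair are given as replicate 1 and then replicate 2. Malignant mice were older than the others and, per the methods, of both sexes where the other groups were female, so malignancy, age and sex cannot be told apart. Of the genes described here, G6pdx, Pdha1, Pdk3 and Pgk1 lie on chromosome X.

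Glycolysis converts glucose to pyruvate in the cytosol, with hexokinase and phosphofructokinase as its committing steps in the upper part of the pathway and with the steps from Gapdh to pyruvate kinase yielding ATP in the lower part. Lactate dehydrogenase converts pyruvate to lactate, while the pyruvate dehydrogenase complex converts it to acetyl-CoA in mitochondria and is switched off by the Pdk kinases and on by the Pdp phosphatases. The pentose phosphate pathway branches from glucose-6-phosphate and supplies NADPH and ribose. Most steps are served by several isozymes of different tissue distribution, and proliferating lymphoid cells, like many tumors, are known for a high flux of glucose to lactate. Myc is known to bind E-boxes at many genes of glycolysis, of which Ldha is a classical target.

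The libraries numbered 1 held 51065861 to 53453055 counts and those numbered 2 held 30031100 to 34543633, so that depth followed the replicate number and not the stage. CPM stands for counts scaled to 1000000 counts of the TMM-scaled library size, and 3 counts amounted to between 0.0526 and 0.108 CPM, a limit that covers counting error only. Myc was at 33.8 and 41.4 CPM in wild type, 1164 and 1155 CPM in premalignant cells and 1732 and 1578 CPM in malignant cells. Cd79a, a signaling subunit of the B-cell receptor, was at 732 CPM or more in every library, whereas the surrogate light chain gene Vpreb1 was at 115 and 131 CPM in wild type and 0.146 and 4.05 CPM in malignant cells. Both were called lower in malignant than wild-type cells, as were Cd79b, Igll1 and Rag1, with log2 fold changes of -0.72 for Cd79a, -0.93 for Cd79b, -5.97 for Vpreb1, -5.73 for Igll1 and -4.15 for Rag1, and all 5 were also called lower in premalignant cells. Of the 8 pre-B markers listed, 6 were called lower and 2 were not called in each comparison with wild type. Over all genes tested, 49.2% were called in malignant and 39.3% in premalignant cells. The highest log2 fold change among the 8 markers was 0.0009 in malignant vs. wild type. The cells are called pre-B here by their sort. Markers of other cells moved with stage as well. The summed level of 6 myeloid markers was 719 and 1600.1 CPM in wild type, 215 and 228 CPM in premalignant cells and 47.4 and 90.8 CPM in malignant cells, and that of 5 erythroid markers was 293 and 1080.2 CPM in wild type, 59.9 and 138 CPM in premalignant cells and 52.3 and 57.5 CPM in malignant cells. All 6 myeloid markers and 4 of the 5 erythroid markers were called lower in both Eμ-Myc stages than in wild type, and none of them was at 0 in any library. The summed levels of 4 T cell, 2 NK cell and 2 plasma cell markers lay at 35.2 to 62.0, 23.4 to 60.7 and 70.8 to 76.3 CPM in wild type and at 0.502 to 9.21, 0.377 to 1.00 and 2.03 to 13.2 CPM in malignant cells. In premalignant cells these sums lay at 13.4 to 30.5, 1.05 to 2.93 and 26.9 to 29.5 CPM. Of the 4 T cell markers, 3 were called lower in malignant and 2 in premalignant cells than in wild type, and none was called higher. In bulk libraries fewer cells of a type and less RNA per cell cannot be told apart.

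Across the 35 genes, 24 rose and 6 fell from wild type to malignant cells, and 5 were not called. Of all genes tested, 49.2% were called in this comparison, 24.9% as higher and 24.3% as lower. In 33 of the 35 genes, compared with 71.7% of all genes tested, both libraries of a stage lay above both of the other. The median log2 fold change of the 35 genes was 0.87, compared with -0.02 over all genes tested. Premalignant cells already differed from wild type at 27 of the genes, 21 higher and 6 lower, with a median log2 fold change of 0.75 against -0.08 over all genes, of which 39.3% were called, 19% as higher and 20.3% as lower. Their libraries did not overlap at 31 of the 35 genes, and at 77.4% of all genes. Both comparisons share the wild-type libraries. A call required an FDR (Benjamini-Hochberg) of 0.1 or less in edgeR's quasi-likelihood test and a log2 fold change of 0.5 or more in either direction. Changes below are log2 fold changes with their standard error unless a fold is named. With libraries scaled to their totals alone, 20 members were higher and 7 lower in malignant vs. wild type, and over all genes 2957 were higher and 5367 lower, in place of 4153 and 4059. Of the 30 calls of malignant vs. wild type, 19 were made under each of the 17 alternatives, and 25 to 30 genes were called when a library was left out. Of the 27 calls of premalignant vs. wild type, 13 were made under each alternative, and the count was 17 without premalignant replicate 1 and 14 without premalignant replicate 2.

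**Figure D1:**
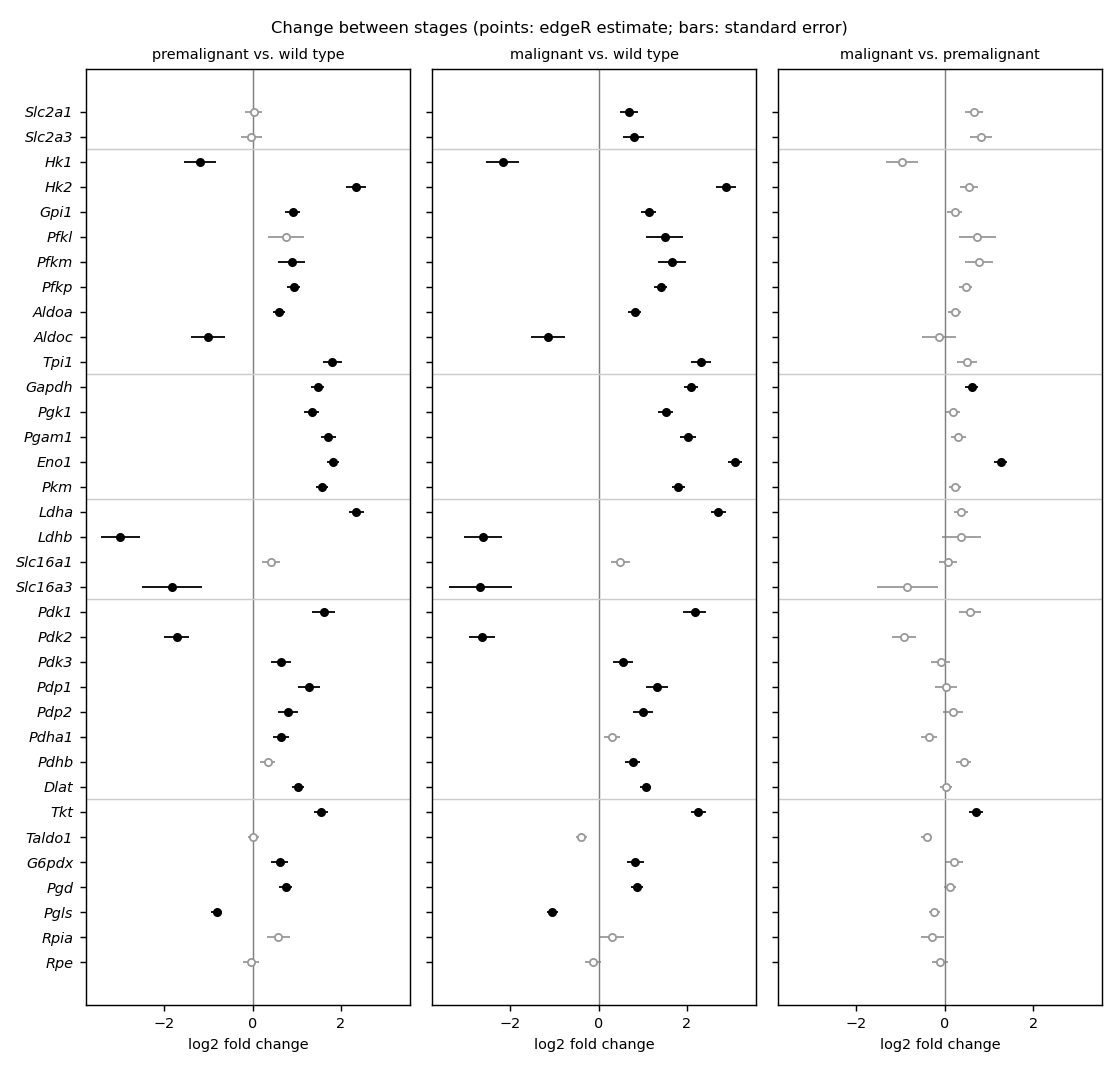
Log2 fold change of each of the 35 genes, ordered by role, in 3 panels that compare premalignant cells with wild type, malignant cells with wild type, and the Eμ-Myc stages with each other, with bars for the standard error of the edgeR fit, filled points for called genes and open points for the others. Rises led by Eno1 (3.08) and falls led by Slc16a3 (-2.68) in malignant cells lie on opposite sides of 0, and 3 filled points, Eno1, Tkt and Gapdh, appear in the last panel.

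Summed over the 35 genes, the level was 3659 and 3584 CPM in wild type, 7595 and 7888 CPM in premalignant cells and 10537 and 10099 CPM in malignant cells. The 3 stages did not overlap in this sum, and spread within a stage was at most 309.9 CPM (SD, n = 2). The sum over the 5 genes of lower glycolysis was 995 and 948 CPM in wild type, 2819 and 2932 CPM in premalignant cells and 4370.4 and 4245 CPM in malignant cells, and that over the 9 genes of upper glycolysis was 602 and 635 CPM in wild type, 1249.7 and 1254 CPM in premalignant cells and 1524 and 1735 CPM in malignant cells. Of the 6 roles, glucose import alone overlapped between wild-type and premalignant cells, its sum over 2 transporters being 47.8 and 66.4 CPM in wild type, 53.2 and 60.0 CPM in premalignant cells and 95.9 and 97.5 CPM in malignant cells. The 4 genes of lactate formation and export summed to 554 and 435 CPM in wild type, 1425 and 1427 CPM in premalignant cells and 1823 and 1668 CPM in malignant cells, and the 8 genes around pyruvate dehydrogenase to 403 and 393 CPM in wild type, 589 and 663 CPM in premalignant cells and 762 and 576 CPM in malignant cells, where premalignant and malignant libraries overlapped. The pentose phosphate genes, whose 7 members summed to 1058 and 1106 CPM in wild type, 1459 and 1552 CPM in premalignant cells and 1962 and 1777 CPM in malignant cells, did not overlap between stages. This rise followed Tkt, at 229 and 245 CPM in wild type and 1231 and 1039 CPM in malignant cells. Pgls and Taldo1 were lower in both malignant libraries than in wild type, and G6pdx and Pgd were higher. The rise of the lactate sum followed Ldha, at 220.2 and 193 CPM in wild type and 1475 and 1230.0 CPM in malignant cells.

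**Figure D2:**
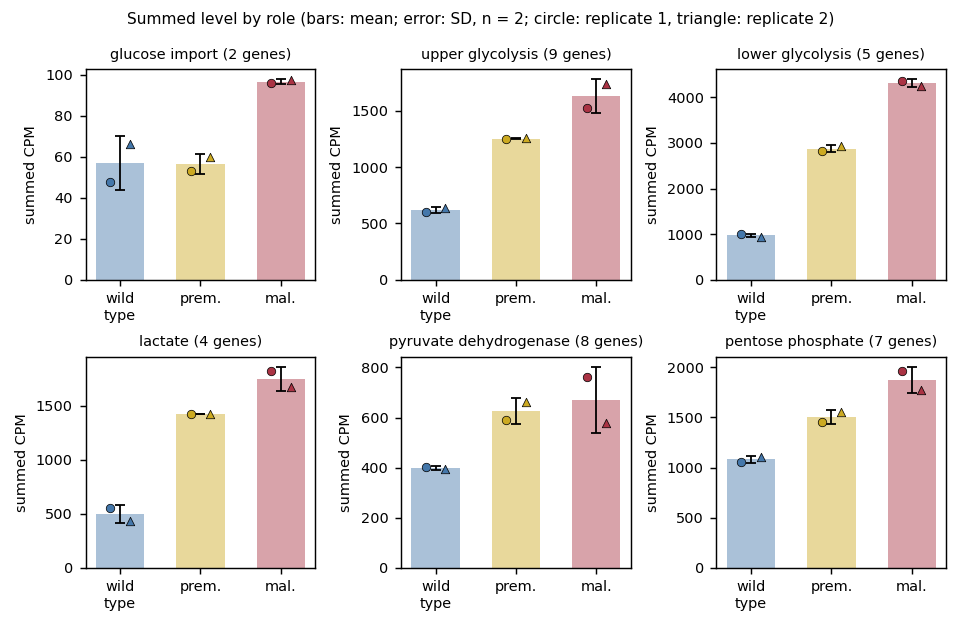
Summed CPM of the genes of each of the 6 roles in every library, with 1 point a library. Lower glycolysis lies at 995 and 948 CPM in wild type and at 4370 and 4245 CPM in malignant cells, while glucose import stays under 100 CPM at every stage.

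Neither glucose transporter was called in premalignant cells, and both rose in malignant cells. Slc2a1, the widely expressed basal glucose transporter, was at 17.1 and 18.7 CPM in wild type, 18.6 and 17.8 CPM in premalignant cells and 32.5 and 25.1 CPM in malignant cells. Slc2a3, a high-affinity transporter, was at 30.6 and 47.7 CPM in wild type, 34.6 and 42.2 CPM in premalignant cells and 63.4 and 72.4 CPM in malignant cells. For both genes the malignant libraries lay above all others and the wild-type and premalignant libraries overlapped. The log2 fold change of Slc2a1 was 0.03 ± 0.19 (SE, edgeR adjusted p = 0.934) in premalignant vs. wild type and 0.69 ± 0.20 (SE, edgeR adjusted p = 0.0314) in malignant vs. wild type. That of Slc2a3 was -0.03 ± 0.24 log2 units (SE, edgeR adjusted p = 0.941) and 0.79 ± 0.24 (SE, edgeR adjusted p = 0.0392) in the same comparisons. Malignant and premalignant cells differed by 0.66 and 0.82 on the log2 scale, with edgeR adjusted p = 0.142 and 0.141, which did not pass the threshold. The malignant vs. wild-type calls were lost without wild type replicate 1 (edgeR adjusted p = 0.135 for Slc2a1 and 0.136 for Slc2a3), and that of Slc2a1 also without wild type replicate 2 (0.107) and without malignant replicate 1, where its log2 fold change was 0.50. Both calls were also lost when libraries were scaled to their totals alone, at log2 fold changes of 0.39 and 0.50.

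The hexokinases, which trap glucose in the cell by phosphorylation, moved in opposite directions. Hk2 (chr6:82675019-82724448 on mm9), the isozyme of insulin-sensitive tissues and of many tumors, was at 10.3 and 11.5 CPM in wild type, 57.1 and 53.5 CPM in premalignant cells and 65.6 and 95.9 CPM in malignant cells. Hk1 (chr10:61731603-61842656), the isozyme of most other tissues, was at 42.7 and 49.4 CPM in wild type, 18.4 and 21.8 CPM in premalignant cells and 6.42 and 14.1 CPM in malignant cells. No stages overlapped for either gene. Hk2 was 5.08-fold higher in premalignant and 7.41-fold higher in malignant cells than in wild type, with log2 fold changes of 2.34 ± 0.22 (SE, edgeR adjusted p = 0.00216) and 2.89 ± 0.22 (SE, edgeR adjusted p = 0.000691). Hk1 differed from wild type by -1.19 ± 0.36 (SE, edgeR adjusted p = 0.0494) in premalignant and by -2.17 ± 0.37 (SE, edgeR adjusted p = 0.00583) in malignant cells on the log2 scale. The premalignant call of Hk1 was lost without any of the wild-type or premalignant libraries (edgeR adjusted p = 0.135 to 0.238), whereas its malignant call was made under all 17 alternatives.

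Of the remaining upper glycolytic genes, 6 rose and Aldoc fell in malignant vs. wild type, where 49.2% of all genes tested were called. Tpi1, which interconverts the triose phosphates, was at 114 and 101 CPM in wild type, 374 and 379 CPM in premalignant cells and 422 and 647 CPM in malignant cells, with log2 fold changes of 1.81 ± 0.22 (SE, edgeR adjusted p = 0.00379) in premalignant and 2.31 ± 0.23 (SE, edgeR adjusted p = 0.00112) in malignant cells against wild type. All stages were separate for Tpi1. Pfkp, a phosphofructokinase isozyme, differed from wild type by 0.93 ± 0.15 log2 units (SE, edgeR adjusted p = 0.00702) in premalignant and by 1.40 ± 0.15 (SE, edgeR adjusted p = 0.00127) in malignant cells. For the other phosphofructokinases the malignant libraries lay far apart. Pfkl was at 40.1 and 41.0 CPM in wild type, 69.8 and 67.3 CPM in premalignant cells and 62.6 and 166 CPM in malignant cells, so that malignant replicate 2 stood apart and malignant replicate 1 lay below the premalignant libraries. Its rise in malignant vs. wild type, 1.50 ± 0.42 log2 units (SE, edgeR adjusted p = 0.0298), was lost without either wild-type library (edgeR adjusted p = 0.14 in both fits) and came to 0.65 without malignant replicate 2. Pfkm, at 24.0 and 44.7 CPM in malignant cells and at 9.76 and 11.9 CPM in wild type, rose by 1.66 ± 0.32 log2 units (SE, edgeR adjusted p = 0.00827), and its premalignant call, 0.88 ± 0.31 (SE, edgeR adjusted p = 0.0758), was lost without any of the wild-type or premalignant libraries (edgeR adjusted p = 0.193 to 0.274). Gpi1, which isomerizes glucose-6-phosphate, rose by 1.14 ± 0.17 log2 units (SE, edgeR adjusted p = 0.00362) in malignant vs. wild type.

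Of the aldolases, Aldoa was at 112 and 131 CPM in wild type, 182 and 185 CPM in premalignant cells and 228 and 199 CPM in malignant cells, and its log2 fold change in malignant vs. wild type was 0.82 ± 0.14 (SE, edgeR adjusted p = 0.00628). Aldoc, the isozyme best known from brain, was at 2.56 and 2.10 CPM in wild type, 1.39 and 0.904 CPM in premalignant cells and 1.13 and 0.968 CPM in malignant cells. The wild-type libraries lay above the others for Aldoc and below them for Aldoa. Aldoc differed by -1.15 ± 0.39 log2 units (SE, edgeR adjusted p = 0.0563) in malignant vs. wild type, and this call was lost without wild type replicate 1, wild type replicate 2 or malignant replicate 2 (edgeR adjusted p = 0.204, 0.127 and 0.111). Its premalignant call, -1.01 ± 0.39 log2 units (SE, edgeR adjusted p = 0.0945), was made under 10 of the 17 alternatives. That call was lost without any of the wild-type or premalignant libraries. With all libraries, it was lost with DESeq2, without a filter on low counts and at an FDR of 0.05. Log2 fold changes lay between -1.36 and -0.74 when a library was left out.

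All 5 lower glycolytic genes were called higher in both comparisons with wild type, with log2 fold changes between 1.34 and 1.82 in premalignant and between 1.52 and 3.08 in malignant cells, and their calls were kept whichever library was left out. Eno1 (chr4:149610830-149622988), the ubiquitous enolase, was at 149 and 137 CPM in wild type, 488 and 523 CPM in premalignant cells and 1158 and 1266 CPM in malignant cells. It changed by 1.82 ± 0.14 log2 units (SE, edgeR adjusted p = 0.00179) in premalignant and 3.08 ± 0.15 (SE, edgeR adjusted p = 0.000526) in malignant cells, the latter an 8.47-fold rise and the largest of the 35 genes. Gapdh, the NADH-yielding step, was at 339 and 306 CPM in wild type, 883 and 911 CPM in premalignant cells and 1446 and 1296 CPM in malignant cells and rose by 1.48 ± 0.15 log2 units (SE, edgeR adjusted p = 0.00262) in premalignant and 2.09 ± 0.15 (SE, edgeR adjusted p = 0.000633) in malignant cells. Pkm, the pyruvate kinase expressed outside liver and red cells, was at 337 and 373 CPM in wild type, 1027 and 1087 CPM in premalignant cells and 1269 and 1208 CPM in malignant cells. No stages overlapped for Eno1, Gapdh or Pkm. Counts per gene do not separate the splice forms of Pkm. Pgam1, the phosphoglycerate mutase, was at 50.9 and 39.3 CPM in wild type, 151 and 145 CPM in premalignant cells and 167 and 199 CPM in malignant cells and rose by 1.72 ± 0.18 log2 units (SE, edgeR adjusted p = 0.00264) in premalignant and 2.02 ± 0.18 (SE, edgeR adjusted p = 0.000902) in malignant cells. Pgk1, the first ATP-yielding step, rose by 1.52 ± 0.17 log2 units (SE, edgeR adjusted p = 0.00160) in malignant vs. wild type. The log2 fold change of Pkm in malignant vs. wild type was 1.80 ± 0.15 (SE, edgeR adjusted p = 0.000744).

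Scaled to exon length, Pkm and Gapdh led the set in wild-type cells, Pkm at 141 and 156 CPM per kb and Gapdh at 150.4 and 136 CPM per kb. These ranges overlapped, so the order of the leading genes was not resolved in wild type. In malignant cells Gapdh, at 642 and 575 CPM per kb, lay above Pkm, at 531 and 505. Some of these genes have many processed copies in the genome, and reads that match several copies may be lost or split by the counting. Of all 50-base words of the annotated exons, 91.1% occurred again elsewhere in the mm9 genome for Pgam1, 68.3% for Pgk1, 50.2% for Gapdh and 40.2% for Pkm, compared with 34.1% for Pdhb, 26.7% for Ldhb, 20.7% for Eno1, 17.7% for Tpi1, 17.0% for Ldha and under 0.1% for Hk1 and Hk2. Levels of the first 4 genes are therefore uncertain, and a change of theirs compares the same annotated exons at each stage. Of the exonic bases, 20.6% overlapped another annotated gene for Pgls, 18.1% for Rpe, 16.5% for Gpi1, 16.0% for Pdha1, 15.6% for Slc16a3 and 13.6% for G6pdx, compared with under 5% for every other member. The kit does not mark strand, so reads of these overlaps may be lost or assigned to either gene.

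**Figure D3:**
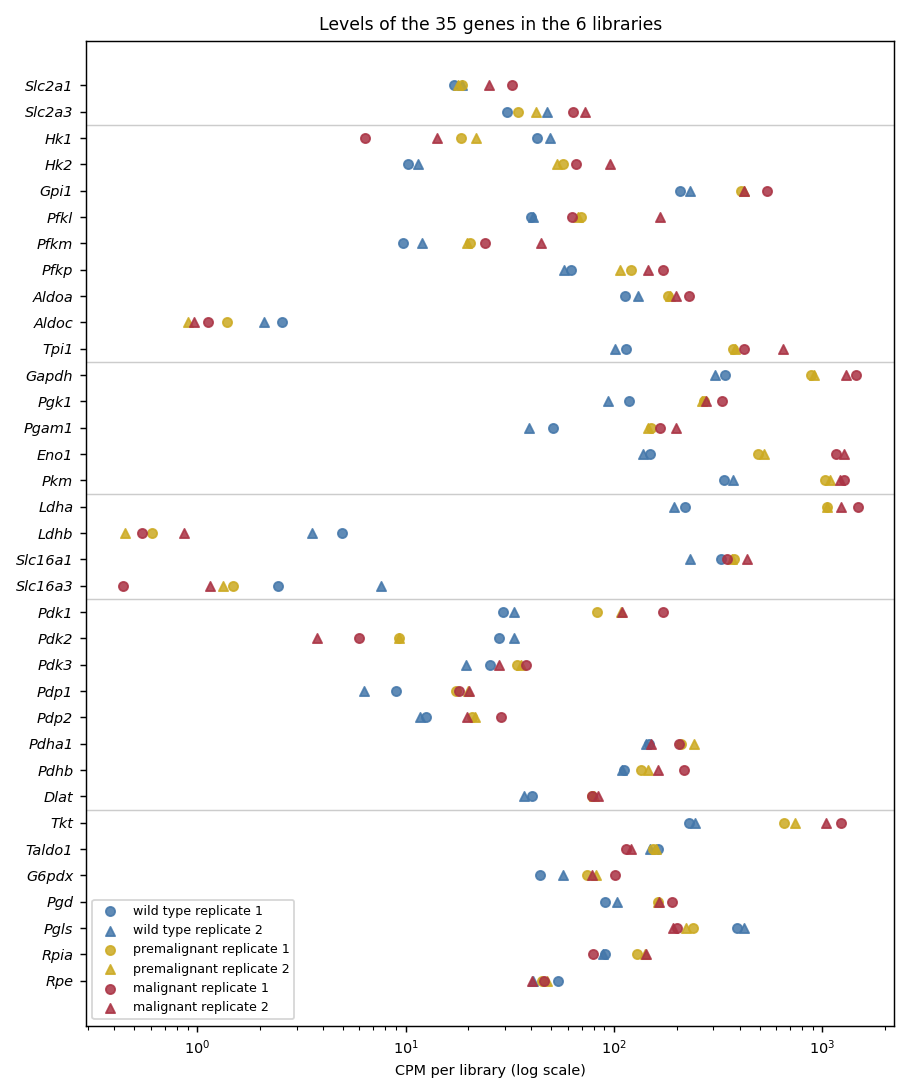
CPM in each of the 6 libraries, on a log scale, for the 35 genes in order of role, with color for the stage and marker shape for the replicate. Eno1, Ldha, Hk2 and Tpi1 lie above their wild-type level in every premalignant and malignant library, while Hk1, Pdk2 and Ldhb lie below it.

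The isozymes of lactate dehydrogenase moved apart. Ldha (chr7:54096845-54110997 on mm9), the subunit that favors lactate formation, was at 220.2 and 193 CPM in wild type, 1049 and 1056 CPM in premalignant cells and 1475 and 1230.0 CPM in malignant cells. Ldhb, the subunit of oxidative tissues such as heart, was at 4.98 and 3.57 CPM in wild type, 0.610 and 0.452 CPM in premalignant cells and 0.544 and 0.860 CPM in malignant cells. Ldha was 5.09-fold higher in premalignant and 6.54-fold higher in malignant cells than in wild type, with log2 fold changes of 2.35 ± 0.17 (SE, edgeR adjusted p = 0.00155) and 2.71 ± 0.17 (SE, edgeR adjusted p = 0.000540). Ldhb differed from wild type by -2.99 ± 0.44 log2 units (SE, edgeR adjusted p = 0.00604) and -2.62 ± 0.44 (SE, edgeR adjusted p = 0.00529), and its premalignant and malignant libraries overlapped. The monocarboxylate transporters export lactate. Slc16a1, the widely expressed transporter, was at 326 and 231 CPM in wild type, 374 and 369 CPM in premalignant cells and 347 and 436 CPM in malignant cells, and it was called in neither comparison with wild type, at 0.42 ± 0.21 log2 units (SE, edgeR adjusted p = 0.173) and 0.49 ± 0.21 (SE, edgeR adjusted p = 0.102). Slc16a3, the transporter of highly glycolytic cells, was at 2.44 and 7.59 CPM in wild type, 1.49 and 1.33 CPM in premalignant cells and 0.439 and 1.15 CPM in malignant cells. Its malignant call, -2.68 ± 0.71 (SE, edgeR adjusted p = 0.0253), was lost without wild type replicate 2 (edgeR adjusted p = 0.142, log2 fold change -1.64), the library with the higher levels of myeloid and erythroid markers given above. Its premalignant call, -1.83 ± 0.68 log2 units (SE, edgeR adjusted p = 0.0881), was lost without that library or either premalignant library (edgeR adjusted p = 0.478, 0.269 and 0.313). The part of marker levels in the falls of Slc16a3, Hk1, Ldhb and Aldoc was not tested.

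Since Myc binds the E-box CACGTG, the promoters of the set are shown where this word was found. The 250 bases before each RefSeq start were read from the RefSeq table on GRCm38.p6, which held 33 of the 35 genes (all but Slc2a3 and Pdp1). The word, a palindrome and so the same on both strands, was searched in windows that also held 50 bases after the start. It was present for 5 of the 33 genes (15.2%), and for 8.09% of all 27025 genes of the table. Some genes have several starts, and a gene counted if any of its windows held the word. By window it was present in 5 of 47 for the 33 genes and in 7.15% of all 32851. The 5 sequences, which lie at chr7:46845554-46845803 (plus strand) for Ldha, chr3:104638414-104638663 (plus strand) for Slc16a1, chr11:95041372-95041621 (minus strand) for Pdk2, chr8:104591222-104591471 (plus strand) for Pdp2 and chr15:98092339-98092588 (plus strand) for Pfkm, are printed 5′ to 3′ with the E-box in capitals.
Ldha: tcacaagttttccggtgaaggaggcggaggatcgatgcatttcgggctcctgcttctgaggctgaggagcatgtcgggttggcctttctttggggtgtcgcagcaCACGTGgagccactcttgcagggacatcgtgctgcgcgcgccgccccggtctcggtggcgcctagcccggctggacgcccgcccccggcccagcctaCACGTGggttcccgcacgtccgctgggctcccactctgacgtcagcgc
Slc16a1: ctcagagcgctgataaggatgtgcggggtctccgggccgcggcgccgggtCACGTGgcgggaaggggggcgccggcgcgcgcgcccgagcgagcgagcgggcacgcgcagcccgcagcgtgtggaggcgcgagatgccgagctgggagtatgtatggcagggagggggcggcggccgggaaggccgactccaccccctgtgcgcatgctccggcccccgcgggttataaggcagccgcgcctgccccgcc
Pdk2: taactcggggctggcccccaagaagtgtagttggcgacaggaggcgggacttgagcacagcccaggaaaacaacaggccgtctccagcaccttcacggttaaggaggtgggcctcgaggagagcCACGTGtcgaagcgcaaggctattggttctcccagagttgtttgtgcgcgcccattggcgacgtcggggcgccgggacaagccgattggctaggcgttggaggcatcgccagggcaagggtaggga
Pdp2: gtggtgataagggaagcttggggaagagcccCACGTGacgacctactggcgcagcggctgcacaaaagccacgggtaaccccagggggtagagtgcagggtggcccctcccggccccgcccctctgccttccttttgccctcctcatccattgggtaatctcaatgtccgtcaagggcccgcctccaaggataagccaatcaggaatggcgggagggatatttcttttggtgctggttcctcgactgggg
Pfkm: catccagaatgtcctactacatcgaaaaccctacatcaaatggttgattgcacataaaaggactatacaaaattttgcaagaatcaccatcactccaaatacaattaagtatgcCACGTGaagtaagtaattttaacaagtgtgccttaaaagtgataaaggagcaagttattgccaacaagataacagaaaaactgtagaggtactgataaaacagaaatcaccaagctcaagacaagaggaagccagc
Ldha held the word at 2 places, beginning 145 and 48 bases before the start, and the others held it at a single place. Of the 5 genes, Ldha, Pdp2 and Pfkm rose in malignant vs. wild type, Pdk2 was called lower and Slc16a1 was not called. Eno1, Hk2, Tpi1 and Tkt, which rose as well, had no such word in these windows, which says nothing of other sites.

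Genes around the pyruvate dehydrogenase complex moved in both directions. Pdk1 (chr2:71711281-71741915 on mm9), a kinase that inactivates the complex, was at 29.5 and 33.0 CPM in wild type, 83.0 and 108 CPM in premalignant cells and 172 and 109 CPM in malignant cells. Pdk2 (chr11:94887572-94902668), another such kinase, was at 27.9 and 33.2 CPM in wild type, 9.26 and 9.31 CPM in premalignant cells and 6.00 and 3.76 CPM in malignant cells. No stages overlapped in CPM for Pdk1 or Pdk2, and the order was reversed between them. For Pdk1 the gap was narrow, at 107.7 CPM in premalignant replicate 2 and 109.3 CPM in malignant replicate 2. That gene was not called between the Eμ-Myc stages (edgeR adjusted p = 0.279). Pdk1 differed from wild type by 1.61 ± 0.25 log2 units (SE, edgeR adjusted p = 0.00720) in premalignant and by 2.17 ± 0.26 (SE, edgeR adjusted p = 0.00180) in malignant cells. Pdk2 differed by -1.72 ± 0.28 log2 units (SE, edgeR adjusted p = 0.00778) and -2.64 ± 0.29 (SE, edgeR adjusted p = 0.00143), so that it was 6.23-fold lower in malignant cells. Pdk3 was at 25.4 and 19.4 CPM in wild type, 34.4 and 35.7 CPM in premalignant cells and 37.8 and 28.0 CPM in malignant cells. Its malignant call, 0.55 ± 0.22 log2 units (SE, edgeR adjusted p = 0.0854), was made under 7 of the 17 alternatives. That call was lost without wild type replicate 2, either premalignant library or malignant replicate 1. Upper-quartile scaling, total scaling, a minimum of 10 counts per library and a fit of 2 stages only lost it as well. Log2 fold changes lay between 0.32 and 0.78 when a library was left out and between 0.25 and 0.56 under the other alternatives.

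The phosphatases that reactivate the complex also rose. Pdp1 differed from wild type by 1.29 ± 0.25 log2 units (SE, edgeR adjusted p = 0.0134) in premalignant and 1.32 ± 0.25 (SE, edgeR adjusted p = 0.00820) in malignant cells, and Pdp2 by 0.81 ± 0.23 (SE, edgeR adjusted p = 0.0406) and 1.00 ± 0.23 (SE, edgeR adjusted p = 0.0153). Pdp2 is a gene that the study singled out from these libraries, so its direction here is not independent evidence. Of the subunits of the complex, Dlat, the acetyltransferase core, rose by 1.04 ± 0.13 log2 units (SE, edgeR adjusted p = 0.00404) and 1.06 ± 0.13 (SE, edgeR adjusted p = 0.00207) in the same comparisons. Pdhb was at 111 and 109.5 CPM in wild type and 217 and 162 CPM in malignant cells, a change of 0.78 ± 0.17 (SE, edgeR adjusted p = 0.0129), and its call was lost with libraries scaled to their totals, at a log2 fold change of 0.48. Pdha1, its partner in the first enzyme of the complex, was called in premalignant cells (log2 fold change 0.65, edgeR adjusted p = 0.0405) and not in malignant cells (0.29, edgeR adjusted p = 0.239), and the difference between the Eμ-Myc stages, -0.35 ± 0.18 (SE, edgeR adjusted p = 0.345), did not pass the threshold. The premalignant calls of Pdha1, Pdp2 and Pdk3 were each lost without either premalignant library, those of Pdha1 and Pdp2 also without either wild-type library, and that of Pdk3 also without wild type replicate 2. Those of Pdha1 and Pdk3 were lost with libraries scaled to their totals as well, at log2 fold changes of 0.44 and 0.43. That of Pdp1 was lost without premalignant replicate 2 (edgeR adjusted p = 0.125).

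In the pentose phosphate pathway 3 of 7 genes rose and 1 fell in malignant vs. wild type. This was 57.1% of the genes, near the 49.2% called among all genes tested. Tkt (chr14:31361545-31387908 on mm9), the transketolase of the nonoxidative branch, was at 229 and 245 CPM in wild type, 653 and 741 CPM in premalignant cells and 1231 and 1039 CPM in malignant cells. It rose by 1.55 ± 0.16 log2 units (SE, edgeR adjusted p = 0.00264) in premalignant and by 2.26 ± 0.17 (SE, edgeR adjusted p = 0.000637) in malignant cells, with no overlap between stages. Taldo1, which acts beside it in the same branch, was at 163 and 148 CPM in wild type, 154 and 159 CPM in premalignant cells and 115 and 121 CPM in malignant cells, and its difference of -0.40 ± 0.12 log2 units (SE, edgeR adjusted p = 0.0426) was smaller than the minimum fold change. The isomerase Rpia and the epimerase Rpe of that branch were not called in any comparison, with log2 fold changes in malignant vs. wild type of 0.30 and -0.13. In the oxidative branch, G6pdx, its entry step, was at 44.3 and 57.0 CPM in wild type, 74.0 and 81.6 CPM in premalignant cells and 101 and 78.4 CPM in malignant cells and rose by 0.83 ± 0.20 log2 units (SE, edgeR adjusted p = 0.0168) in malignant cells. Pgd, the other NADPH-yielding step, rose by 0.87 ± 0.14 log2 units (SE, edgeR adjusted p = 0.00492). Pgls, the lactonase between them, moved the other way, at 387 and 422 CPM in wild type, 240.4 and 220.4 CPM in premalignant cells and 199.9 and 191 CPM in malignant cells, and differed by -1.05 ± 0.13 log2 units (SE, edgeR adjusted p = 0.00212).

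Ratios of isozymes within a library do not depend on its size or scaling, and 10 pairs were compared as log2 ratios of counts per kb of exon with 0.5 counts added. With 2 libraries per stage an exact two-sided permutation test cannot give a p below 0.333, so these ratios are described by their separation. Hk2 to Hk1 gave log2 ratios of -1.54 and -1.59 in the wild-type, 2.14 and 1.81 in the premalignant and 3.87 and 3.28 in the malignant libraries. The 2 hexokinases thus changed places, Hk2 making up 25.3% ± 0.464 (SD, n = 2) of their summed level per kb at the wild-type stage, 79.7% ± 2.63 at the premalignant and 92.1% ± 2.06 at the malignant stage. The log2 ratio of Pdk2 to Pdk1 was 1.22 and 1.31 in the wild-type, -1.87 and -2.23 in the premalignant and -3.54 and -3.55 in the malignant libraries. Per kb, Pdk1 was the lower of this pair in both wild-type libraries and the higher in every Eμ-Myc library. Its share of the summed level of the 3 kinases was 17.9% ± 1.54 at the wild-type stage, 42.3% ± 3.95 at the premalignant and 55.4% ± 2.33 at the malignant stage (SD, n = 2), while that of Pdk2 was 43.1% ± 5.59, 10.2% ± 0.884 and 4.72% ± 0.243. Pdk3 to Pdk1 gave 1.39 and 0.84 in the wild-type, 0.33 and 0.01 in the premalignant and -0.58 and -0.36 in the malignant libraries. Per kb, Pdk1 thus also passed Pdk3 in the malignant libraries. The order of these kinases rests on their annotated exon lengths, 7779 bases for Pdk1, 3163 for Pdk2 and 2561 for Pdk3. In CPM, Pdk1 already lay above Pdk3 in wild type, at 29.5 and 33.0 against 25.4 and 19.4. It was close to Pdk2 there, at 27.9 and 33.2 CPM. The change of a ratio between stages does not depend on these lengths.

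In 3 other pairs that separated both Eμ-Myc stages from wild type, the minor isozyme became more minor. Ldhb to Ldha gave log2 ratios of -4.54 and -4.83 in the wild-type, -9.80 and -10.22 in the premalignant and -10.45 and -9.53 in the malignant libraries. The mean difference from wild type was -5.32 in premalignant and -5.30 in malignant cells, and the Eμ-Myc stages overlapped. Slc16a3 to Slc16a1 gave -7.32 and -5.19 in the wild-type, -8.23 and -8.37 in the premalignant and -9.86 and -8.81 in the malignant libraries, and Aldoc to Aldoa gave -5.70 and -6.20 in the wild-type, -7.27 and -7.90 in the premalignant and -7.89 and -7.90 in the malignant libraries. The wide gap between the wild-type libraries for Slc16a3 to Slc16a1 exceeded 2 on the log2 scale. Slc2a3 to Slc2a1 overlapped between all stages, with mean differences from wild type of -0.03 in premalignant and 0.15 in malignant cells. Pfkm to Pfkp overlapped as well, and Pfkl to Pfkp was -0.35 and 1.28 in the malignant libraries, a wider spread than that between stages. Pfkl to Pfkp and Pdp2 to Pdp1 separated premalignant from wild-type cells, by -0.17 and -0.50, and overlapped between malignant and wild-type cells.

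**Figure D4:**
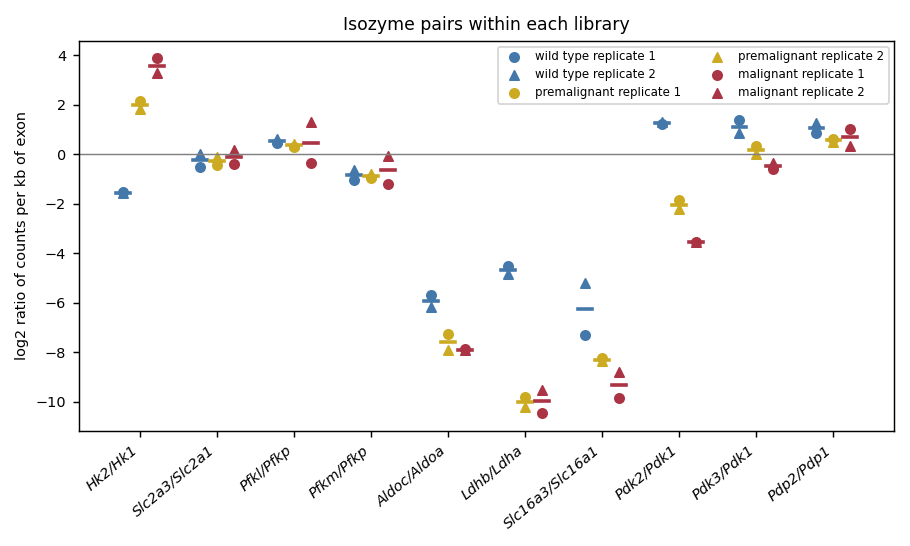
Log2 ratio of the first to the second isozyme of each of 10 pairs in every library, from counts per kb of exon. Hk2/Hk1 crosses 0 upward and Pdk2/Pdk1 crosses 0 downward between the wild-type and premalignant libraries, whereas Slc2a3/Slc2a1 stays within 1 of 0 in all 6 libraries.

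Malignant and premalignant cells differed at 3 of the 35 genes, all higher in malignant cells, compared with 6.18% of all genes tested (3.73% higher and 2.45% lower), and the median log2 fold change was 0.22 against 0.04 over all genes. Eno1 rose by 1.26 ± 0.14 log2 units (SE, edgeR adjusted p = 0.0199), Tkt by 0.70 ± 0.16 (SE, edgeR adjusted p = 0.0822) and Gapdh by 0.61 ± 0.15 (SE, edgeR adjusted p = 0.0947). For each of the 3 genes both malignant libraries lay above both premalignant libraries. In 24 of the 35 genes the libraries of these stages did not overlap, 18 with malignant cells higher and 6 with them lower, while 51.1% of all genes tested did not overlap in either direction. The number of calls depended on the libraries. No gene of the set was called without premalignant replicate 1 or without premalignant replicate 2, when no gene of all those tested was called either, and 10 were called without malignant replicate 1 and 10 without malignant replicate 2. Eno1 kept its call except without a premalignant library (edgeR adjusted p = 0.313 and 0.228), whereas Tkt and Gapdh also lost theirs without either wild-type library (edgeR adjusted p = 0.175 to 0.187). Hk1, Pdk2 and Slc16a3 did not pass the threshold, with log2 fold changes of -0.98, -0.92 and -0.85 (edgeR adjusted p = 0.209, 0.148 and 0.565).

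Other genes of the same pathways were taken from lists of tissue isozymes and related genes, regulators and mitochondrial pyruvate genes, 44 in all, of which 36 passed the filter on low counts. Of these, 7 rose and 14 fell in malignant vs. wild type, and 2 were higher and 12 lower in premalignant cells, against the 49.2% and 39.3% of all genes called in these comparisons. In malignant vs. premalignant, 3 were higher and 1 lower, which was 11.1% of those tested, against 6.18% of all genes. Eno2, H6pd and Txnip were higher, by 5.77, 1.77 and 0.85 log2 units (edgeR adjusted p = 0.0242, 0.0298 and 0.0721). Pfkfb3 was lower, at -0.54 (edgeR adjusted p = 0.0904). Among the regulators, Tigar, a phosphatase that lowers glycolytic flux, was at 11.8 and 10.7 CPM in wild type, 21.7 and 21.4 CPM in premalignant cells and 25.9 and 30.8 CPM in malignant cells and rose by 1.34 ± 0.18 log2 units (SE, edgeR adjusted p = 0.00292) in malignant vs. wild type. Txnip, an arrestin that restrains glucose uptake, was at 283 and 367 CPM in wild type, 107 and 118 CPM in premalignant cells and 221 and 183 CPM in malignant cells. Its premalignant libraries were the lowest, and it differed from wild type by -1.54 ± 0.18 log2 units (SE, edgeR adjusted p = 0.00348) in premalignant and -0.69 ± 0.18 (SE, edgeR adjusted p = 0.0238) in malignant cells. Its relative Arrdc4 was at 3.12 and 1.90 CPM in wild type and 0.0628 and 0.466 CPM in malignant cells (log2 fold change -3.34, edgeR adjusted p = 0.0245). Mlxip, a glucose-responsive partner of Mlx, fell by 1.22 on the log2 scale (edgeR adjusted p = 0.0126), and Pfkfb4, which sets the level of a phosphofructokinase activator, by 1.19 (edgeR adjusted p = 0.0260). Pfkfb4 was at 7.87 and 12.1 CPM in wild type. Its isozyme Pfkfb3 was at 147 and 151 CPM in wild type and 98.9 and 100.3 CPM in malignant cells. Pfkfb3 differed by -0.58 ± 0.13 log2 units (SE, edgeR adjusted p = 0.0124) in malignant vs. wild type. The calls of Txnip and Pfkfb4 in malignant vs. wild type were lost without wild type replicate 2 (edgeR adjusted p = 0.115 and 0.159) and that of Arrdc4 without wild type replicate 1 (0.114). Among the mitochondrial genes, Dld, the dehydrogenase shared by the complex with others, rose by 0.88 ± 0.15 log2 units (SE, edgeR adjusted p = 0.00582) and the pyruvate carrier subunit Mpc1 by 0.68 ± 0.23 (SE, edgeR adjusted p = 0.0510). The call of Mpc1 was lost without wild type replicate 2, malignant replicate 1 or either premalignant library (edgeR adjusted p = 0.108 to 0.237).

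Of the 26 genes in the list of tissue isozymes and related genes, 19 were tested, and 4 rose and 9 fell in malignant vs. wild type. This was 68.4% of those tested, compared with 49.2% of all genes tested. Eno2, the neuronal enolase, was at 0.0876 and 0.142 CPM in wild type, 0.114 and 0.0301 CPM in premalignant cells and 5.98 and 2.80 CPM in malignant cells, so that its wild-type and premalignant levels lay near that of 3 counts. Its difference in malignant vs. wild type was 5.27 ± 0.71 log2 units (SE, edgeR adjusted p = 0.00268). H6pd, which starts a pentose phosphate pathway in the endoplasmic reticulum, was at 32.4 and 44.3 CPM in wild type, 22.4 and 28.2 CPM in premalignant cells and 71.6 and 101 CPM in malignant cells and rose by 1.17 ± 0.25 log2 units (SE, edgeR adjusted p = 0.0120). Lower levels were found for Hk3, the hexokinase of myeloid cells, at 6.45 and 18.97 CPM in wild type, 2.25 and 2.56 CPM in premalignant cells and 0.377 and 1.36 CPM in malignant cells, and for Bpgm, which makes the bisphosphoglycerate of red cells, at 31.2 and 56.8 CPM in wild type, 13.5 and 18.3 CPM in premalignant cells and 10.9 and 12.9 CPM in malignant cells. Both genes were highest in wild type replicate 2, as were the myeloid and erythroid marker sums, and the part of these markers in their falls was not tested. Hk3 differed by -3.90 ± 0.79 log2 units (SE, edgeR adjusted p = 0.0101) and Bpgm by -1.89 ± 0.33 (SE, edgeR adjusted p = 0.00623) in malignant vs. wild type. Slc2a4, Slc16a7 and Fbp1 were under 2 CPM in every library and were called lower, with log2 fold changes of -5.47, -4.18 and -3.34. Slc2a6 and Slc2a8 fell by 1.11 and 1.11 on the log2 scale (edgeR adjusted p = 0.0421 and 0.0377), calls that were lost without either wild-type library (0.131 to 0.150). That of Fbp1 was lost without wild type replicate 2 (edgeR adjusted p = 0.107).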

How the data were processed

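Polyadenylated RNA of sorted pre-B cells was sequenced in 6 libraries, 2 for each of 3 stages (wild type, premalignant and malignant), as 50-bp single reads from a kit that does not mark strand. The authors aligned the reads with TopHat and deposited HTSeq counts per Ensembl gene, without normalization. The submitters' processing notes also name CASAVA 1.8.2, Bowtie, DESeq and mm9, and the HTSeq options and annotation are not given in the sources used here. Deposited tables of the authors' own comparisons (stage means, fold changes and p-values) were not used.

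Counts were fitted with edgeR 4.0.16 (R 4.3.3), using the quasi-likelihood test, TMM and the default filter on low counts, with all 6 libraries in 1 fit. TMM takes most genes as unchanged, and without a spike-in a change in RNA per cell would not be seen. Benjamini-Hochberg adjustment ran over all 16683 genes tested, and the FDR of 0.1 and minimum log2 change of 0.5 are the thresholds of the study's methods. Standard errors were derived from each change and its F statistic. The alternatives were DESeq2 1.42.0, RLE, upper-quartile or total scaling, no filter or a minimum of 10 counts per library, a block for the replicate number, fits of 2 stages only, an FDR of 0.05, no minimum or a minimum of 1 for the log2 fold change, and leaving out each library.

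Symbols and coordinates come from GENCODE vM1 on NCBIM37 (mm9), where 37205 identifiers had a symbol and Pkm is listed as Pkm2. Promoters come from RefSeq on GRCm38.p6. The members and lists were chosen with earlier results of these data known. Values in every library are given for the 5 largest rises and 5 largest falls among called members of each comparison, for both genes of isozyme pairs whose ratio separated stages by a mean of at least 1, and for the highest levels per length, and some others were added after their values were seen. Of the other pathway genes, those called in malignant vs. wild type with a change of 1 or more on the log2 scale are named, and others were added likewise. A marker gene is not reported here.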

Additional observations from a re-analysis of the deposited data

How the results depend on the processing

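No called change of a member changed sign under any of the 17 alternatives, and the 36 changes of sign concerned 14 genes in comparisons where they were not called. In malignant vs. wild type, 25 to 30 of the 35 genes were called when a library was left out, 21 to 25 as higher and 4 to 6 as lower. With library totals alone 20 genes were higher and 7 lower, and the log2 fold changes of all genes had a median of -0.31, compared with -0.19 with upper-quartile scaling and -0.02 with TMM. In premalignant vs. wild type, 14 to 29 genes were called when a library was left out, 12 to 23 as higher and 2 to 6 as lower, and a minimum log2 fold change of 1 gave 17 calls, 12 of them higher. In malignant vs. premalignant, leaving out a library gave 0 to 10 calls, 0 to 8 as higher and 0 to 3 as lower. That comparison gave 7 calls with DESeq2 (5 higher, 2 lower), 9 without a filter on low counts (7 higher, 2 lower), and 1, Eno1, which was higher, with upper-quartile scaling, with fits of these 2 stages only, at an FDR of 0.05 and at a minimum log2 fold change of 1. The cause of the differences between tools was not tested.

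The labels do not say that a replicate number marks a shared litter or batch, and deviations from the stage means of libraries with the same number correlated at 0.41 (wild type and premalignant), 0.06 (wild type and malignant) and 0.13 (premalignant and malignant) over 16683 genes. With the number as a block, 30, 27 and 2 members were called in malignant vs. wild type, premalignant vs. wild type and malignant vs. premalignant, where the last lost Gapdh and Tkt and gained Slc2a3. Within replicates 1 and 2 the Pdp2 to Pdp1 log2 ratio differed between malignant and wild-type cells by 0.19 and -0.93, and the Slc16a3 to Slc16a1 ratio between premalignant and wild-type cells by -0.91 and -3.18. With 2 libraries per stage, a fit without a library takes the spread of the remaining library from the other stages.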
